A study of Homo sapiens with 23 samples.

Results

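The genes described here were the YAP and TEAD factors and their target genes, 10 of the 60605 genes in the count table. They were chosen by symbol, through each gene's Ensembl identifier, and the rule itself used no measured value. The list held the coactivators YAP1 and WWTR1, the DNA-binding partners TEAD1 and TEAD4, and the targets CCN1, CCN2, ANKRD1, AMOTL2, AJUBA and LATS2. YAP1 and TAZ, the product of WWTR1, carry no DNA-binding domain and reach the genome through TEAD proteins. The Hippo kinases LATS1 and LATS2 phosphorylate both coactivators and keep them out of the nucleus. Several targets feed back on the pathway: LATS2 is itself a Hippo kinase, AMOTL2 holds YAP1 at junctions and in the cytoplasm, and AJUBA, a LIM-domain protein, binds LATS kinases.

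Transcription was measured by PRO-seq, which maps engaged RNA polymerases, in clone 28 of T47D, a luminal, estrogen receptor-positive breast cancer cell line. The clone carried a degron tag at the endogenous TRPS1 gene in every group, controls included. TRPS1 is a GATA-family transcriptional repressor, and earlier work has described it as a repressor of YAP-dependent transcription in breast cancer cells. The DMSO group (n = 4) received 0.1% DMSO for 24 h. The dTAG groups received 50 nM each of dTAG-13 and dTAGV-1, which direct the tagged protein to degradation, for 0.5, 1, 2 or 4 h (n = 4 each) or 24 h (n = 3). Every library came from this clone and the values describe it alone. Same-numbered replicates were harvested together. Because PRO-seq was run on bulk cells, fewer transcribing cells and less transcription per cell cannot be told apart.

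Libraries held between 4408544 and 17571616 counts, with a median of 9768427, and the 1 h group held the fewest, 27687600 over its 4 libraries. Mitochondrial genes took 1.73% to 6.5% of counts, the highest share in replicate 1 at 4 h. The luminal markers of the labelled cell line were present: KRT8, KRT18, KRT19, EPCAM, CDH1, ESR1, GATA3 and FOXA1 were all read in every library, ESR1 at 2243 to 2686 CPM (read counts as a share of the library, with TMM scaling). The basal keratins KRT5 and KRT14 had at most 3 and 6 counts in a library, COL1A2 at most 6, PDGFRA at most 17 and PTPRC, a leukocyte gene, at most 63. COL1A1, a fibroblast collagen, had 47 to 220 counts in every library, and its log2 fold change of -0.36 at 1 h was not called (edgeR adjusted p 0.207), although the groups did not overlap. TP63, a basal transcription factor, was low at 18.3 to 32.5 CPM, but it was called higher at 1, 2, 4 and 24 h. TRPS1 itself gave 7997 to 11979 CPM; the ligands act on its protein, so its reads check no depletion.

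The levels of the 10 genes, per kilobase of gene span so that genes can be compared, differed widely in DMSO. CCN1, a secreted matricellular protein and an immediate-early YAP target, was highest at 12.9 ± 0.71 CPM per kb (SD, n = 4), above 95.7% of the tested genes. AMOTL2 followed at 6.55 ± 0.21, AJUBA at 4.26 ± 0.24 and YAP1 at 2.67 ± 0.13 CPM per kb. LATS2 stood at 0.780 ± 0.018 CPM per kb, close to the median tested gene at 0.820. TEAD4 at 0.610 ± 0.035, TEAD1 at 0.567 ± 0.019 and WWTR1 at 0.513 ± 0.046 CPM per kb overlapped with their neighbours in this order, whereas every step from CCN1 down to TEAD4 was free of overlap between DMSO libraries. A short gene such as CCN1, with a span of 3829 bp, gives more weight to polymerase paused near its start than a long gene such as TEAD1, with a span of 270317 bp. The plot of level per kb shows the order.

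**Figure D1:**
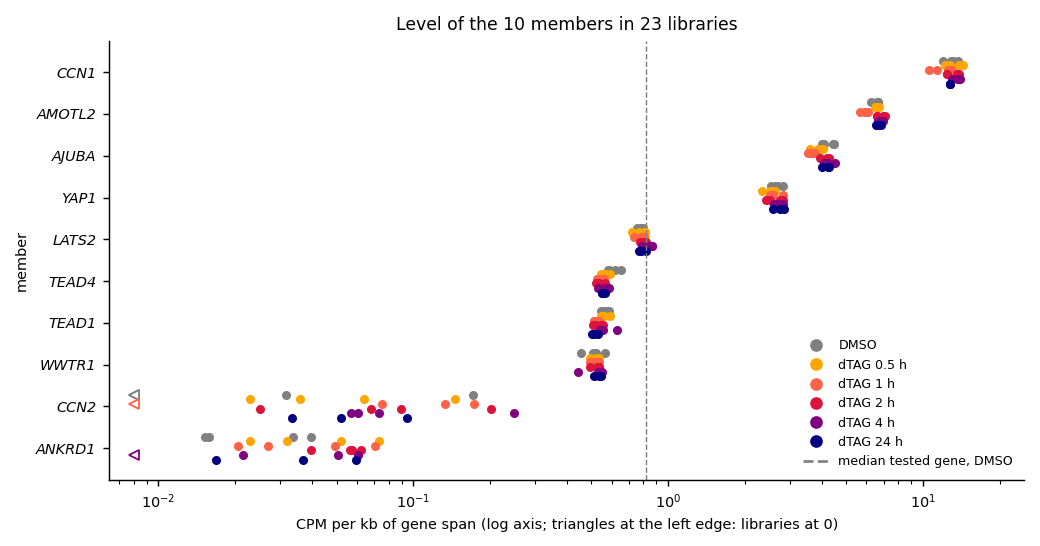
Level of each of the 10 genes in CPM per kb of gene span, on a log axis, with a point per library coloured by group and triangles for libraries at 0 counts. The dashed line marks the median tested gene in DMSO, 0.820. CCN1, AMOTL2, AJUBA and YAP1 lay above that line in all 23 libraries, and CCN2 and ANKRD1 lay far below it in all 23.

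The well-known YAP targets CCN2 and ANKRD1 were barely transcribed. CCN2, the connective tissue growth factor gene, had 53 counts over all 23 libraries, between 0 and 5 in a library and 0 in 3 of them. ANKRD1, which encodes a nuclear ankyrin repeat protein of muscle, had 89 counts in all, between 0 and 9 in a library. In the 4 DMSO libraries CCN2 had 0, 4, 0 and 1 counts in replicates 1 to 4, and ANKRD1 had 1, 1, 5 and 3. For 5 CCN2 counts in DMSO the exact 95% Poisson interval was 0.0426 to 0.306 CPM, here on library totals without further scaling, and for 10 ANKRD1 counts it was 0.126 to 0.483 CPM. These intervals cover counting error only. LINC01013 covers CCN2 whole on the opposite strand and had 3.17 counts per library. Both genes fell below the low-count filter and were not tested.

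Their counts stayed low after TRPS1 degradation. Over pooled library totals, CCN2 was highest at 1 h, with 9 counts in 4 libraries or 0.325 CPM (95% Poisson interval 0.149 to 0.617), which overlapped the DMSO interval. As a mean of libraries with TMM scaling it was highest at 4 h, 0.352 ± 0.298 CPM (SD, n = 4) against 0.162 ± 0.262 CPM in DMSO. ANKRD1 reached 23 counts at 2 h, 0.485 CPM (0.307 to 0.727), also overlapping the DMSO interval. All 4 of the 2 h libraries held more ANKRD1 CPM than the DMSO library of the same number, yet 2 h and DMSO libraries overlapped. In an edgeR fit without the filter, the smallest unadjusted p-value over the 5 time points was 0.21 for CCN2 and 0.111 for ANKRD1, with adjusted p-values of 0.891 and 0.927. All 5 log2 fold changes in that fit were positive for both genes, 0.36 to 1.18 for CCN2 and 0.33 to 0.88 for ANKRD1, and CPM was higher than in the same-numbered DMSO library in 12 and 14 of 19 pairs. These pairs and fold changes all reuse the same 5 CCN2 and 10 ANKRD1 counts in DMSO, so they are not independent. CCN2 had 0 counts in DMSO replicates 1 and 3, where any read makes a pair higher. The share of low-count genes with such pair counts is not given here. No change was detected in either gene, and the intervals leave room for large ones.

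The promoters of these near-silent targets are printed because they carry the letters that TEAD proteins recognise. RefSeq sequences on GRCh38.p14 were given for 7 of the 10 genes, with 10 start sites. TEAD1, TEAD4 and CCN1 had no entry. The TEAD core CATTCC was searched on both strands in the 250 bases before each start. It was found for YAP1, CCN2, ANKRD1, AMOTL2 and AJUBA, before 5 of the 10 starts, and in 11.9% of all 35116 promoters. CCN2 held 3 copies, a number reached by 0.0826% of all promoters, and ANKRD1 held 2, reached or passed by 0.940%. The sequences below run 5′ to 3′ on the gene's strand, with the TEAD core in capitals, which reads GGAATG where it lies on the other strand: CCN2 at chr6:131951373-131951622 and ANKRD1 at chr10:90921088-90921337, both on the minus strand.
CCN2: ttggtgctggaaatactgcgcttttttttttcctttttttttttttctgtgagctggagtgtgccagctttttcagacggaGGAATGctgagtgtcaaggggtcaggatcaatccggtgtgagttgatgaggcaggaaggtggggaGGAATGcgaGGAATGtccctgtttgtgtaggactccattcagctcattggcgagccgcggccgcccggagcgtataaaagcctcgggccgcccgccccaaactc
ANKRD1: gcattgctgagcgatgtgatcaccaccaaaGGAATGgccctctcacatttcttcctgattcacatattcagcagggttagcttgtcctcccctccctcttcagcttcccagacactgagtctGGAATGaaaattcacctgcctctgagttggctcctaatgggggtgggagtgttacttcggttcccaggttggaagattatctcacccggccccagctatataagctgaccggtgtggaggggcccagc
The CCN2 cores began 169, 104 and 95 bases before the start, and the ANKRD1 cores 220 and 128 bases before it. A match is a run of letters and not evidence of binding.

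For comparison, YAP1 and AMOTL2, which were transcribed well above the median gene, held 1 core each. The 30 bases around the YAP1 core, 162 bases before its start, were read from chr11:102110273-102110302 on the plus strand. Those around the AMOTL2 core, 69 bases before the downstream of its 2 starts, came from chr3:134374499-134374528 on the minus strand.
YAP1: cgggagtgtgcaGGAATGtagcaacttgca
AMOTL2: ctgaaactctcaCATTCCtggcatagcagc
The AJUBA core lay 59 bases before the downstream of its 2 starts and none before the upstream one. WWTR1 and LATS2 held none. GATA cores (A or T, then GATA, then A or G, on both strands), the letters that GATA-family proteins such as TRPS1 recognise, were found for WWTR1, ANKRD1, AMOTL2 and LATS2, before 4 of the 10 starts and in 22.3% of all promoters. The AMOTL2 GATA core lay 63 bases before its upstream start and the ANKRD1 core 52 bases before its start. The data do not separate transcription from the 2 AMOTL2 starts.

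Each time point was compared with DMSO to ask whether these genes moved after dTAG was added. No untagged cells given the ligands were among these libraries, and the labels list no vehicle exposure for the dTAG groups. Loss of TRPS1, other effects of the ligands and vehicle time therefore cannot be told apart here. The tests were edgeR quasi-likelihood tests on all 23 libraries, with Benjamini-Hochberg adjustment over 26057 genes, and a gene was called at an adjusted p under 0.1. The 5 comparisons share the 4 DMSO libraries, so a common offset in those libraries enters all of them. Of the 8 tested genes, 2 were called at 1 h (AMOTL2 and AJUBA), 1 at 2 h (TEAD4) and 0 at 0.5, 4 and 24 h, and every called gene was lower. Over all genes, 1.25% were called at 1 h (0.733% lower), 0.733% at 2 h (0.303% lower), 0.476% at 0.5 h, 0.833% at 4 h and 0.863% at 24 h. At an unadjusted p under 0.05, edgeR gave 2, 4, 1, 2 and 2 of the 8 genes at 0.5, 1, 2, 4 and 24 h. Over all 26057 genes it gave 2002, 2454, 1849, 1946 and 1922. At 0.5, 4 and 24 h DESeq2 called 0, 0 and 1 of the 8 (TEAD1 at 24 h). All shares of genes called are edgeR shares, so DESeq2 counts, here and below, stand without a background share. No gene of the 8 was called higher by edgeR at any time point. The changes were small, each under 0.25 on the log2 scale, as the plot of fold changes shows.

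**Figure D2:**
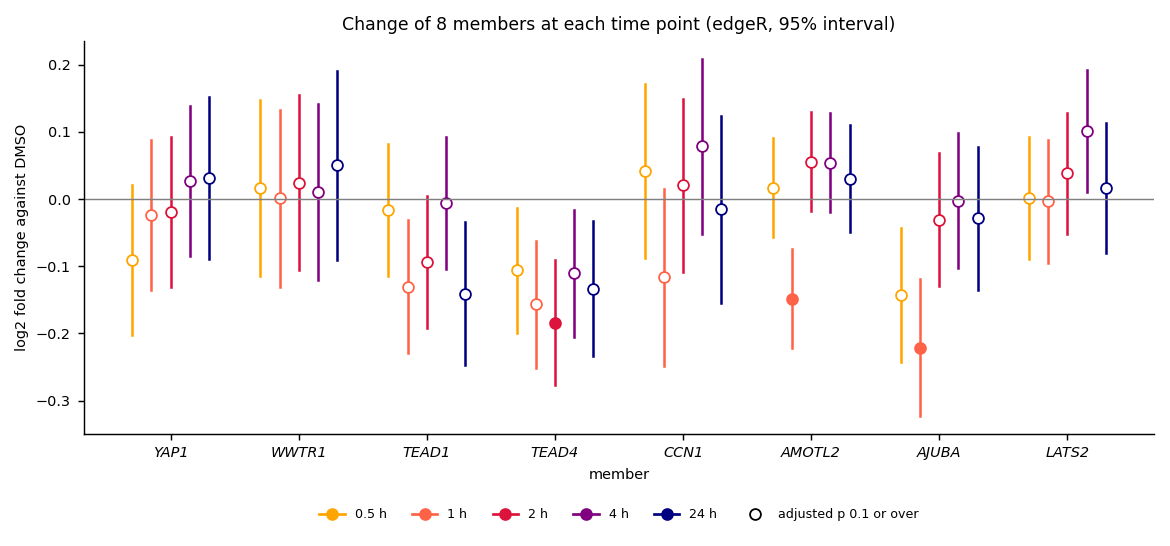
Log2 fold change of the 8 tested genes against DMSO at each time point, with 95% intervals from the edgeR fit of 23 libraries; filled points have an adjusted p under 0.1. The 3 filled points are AMOTL2 and AJUBA at 1 h and TEAD4 at 2 h, all below 0, and the 1 h intervals of YAP1, WWTR1, CCN1 and LATS2 include 0.

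AMOTL2 (ENSG00000114019; hg38, chromosome 3, 134355347 to 134375479, minus strand) dipped at 1 h. Its DMSO libraries gave 134, 133, 134 and 125 CPM in replicates 1 to 4, and its 1 h libraries gave 120, 119, 123 and 114 CPM. All 4 of the 1 h libraries were thus below all 4 DMSO libraries. AMOTL2 fell by 0.15 ± 0.04 (SE) on the log2 scale, a ratio of 0.903, with an edgeR adjusted p of 0.0558, and 0.0231 with the replicate number as a block. The 0.5 h libraries, at 131, 133, 134 and 135 CPM, and the 2 h libraries, at 140, 143, 132 and 133 CPM, overlapped DMSO. At 4 h it gave 141, 134, 135 and 138 CPM and at 24 h, in replicates 2 to 4, 138, 132 and 134 CPM. The log2 fold changes at these 4 time points lay between 0.02 and 0.06 and none was called. The 1 h call was lost on leaving out any replicate number, at log2 fold changes from -0.15 to -0.14 and edgeR adjusted p-values of 0.259, 0.258, 0.365 and 0.267 without replicates 1, 2, 3 and 4, and also with total counts as the scale (0.376) or without the low-count filter (0.285).

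AJUBA (ENSG00000129474; chromosome 14, 22971177 to 22982551, minus strand) was also lowest at 1 h. It gave 45.7, 51.0, 46.4 and 50.6 CPM in the DMSO replicates and 41.4, 41.5, 43.0 and 40.1 CPM at 1 h, again with no overlap. AJUBA fell by 0.22 ± 0.05 (SE) on the log2 scale, a ratio of 0.858, with an edgeR adjusted p of 0.0319, and 0.0292 with the block. At 0.5 h it stood at 46.0, 44.1, 41.1 and 44.5 CPM, a log2 fold change of -0.14 ± 0.05 that was not called (edgeR adjusted p 0.339). The 2 h libraries gave 47.6, 48.8, 44.9 and 48.3 CPM, the 4 h libraries 48.1, 46.4, 51.4 and 47.4 CPM, and the 24 h libraries 48.1, 48.6 and 45.6 CPM. Those later values overlapped DMSO, with log2 fold changes from -0.03 to -0.00. The 1 h call was lost without replicate 1, 2 or 4 (edgeR adjusted p 0.112, 0.300 and 0.456), with total counts as the scale (0.220) and without the low-count filter (0.153), and kept without replicate 3 (0.0789).

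Overlapping annotation limits both of these genes. AJUBA lies almost whole, over 11082 bp, inside ENSG00000259132, a protein-coding gene model on the same strand, so its reads also count there. That model, with 861 counts per library on average against 482 for AJUBA, was lower at 1 h by a log2 fold change of -0.15 ± 0.05 but not called (edgeR adjusted p 0.161), except in the fit with the block (0.0991). The end of AMOTL2 shares 1215 bp with the pseudogene RPL39P5 on the same strand, whose log2 fold change at 1 h was 0.02 ± 0.06. RPL39P5 had 477 counts per library against 1383 for AMOTL2, where the density of AMOTL2 reads gives 83.4 over the shared bases. Reads in the shared bases also count for AMOTL2, and their part in its total was not determined. Whether reads were counted by strand was not stated, but some antisense transcripts held far fewer reads than the genes around them would give if strand had been ignored. LATS2-AS1, which spans 12966 bp of LATS2, had 1.30 counts per library where the density of LATS2 reads gives 107. An antisense transcript in YAP1 (ENSG00000254422) had 0.217 where that density gives 29.7, and one in TEAD1 (ENSG00000203258) had 0.217 where it gives 9.79. Others held more than the density gives. WWTR1-AS1 had 145 against 23.9, LINC01013 over CCN2 3.17 against 2.30, and ENSG00000277459, which shares 11 bp with YAP1, 116 against 0.304. Such counts can include the transcript's own reads, so they do not show how strand was used.

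TEAD4 (ENSG00000197905; chromosome 12, 2959330 to 3040676, plus strand), a TEAD factor with a known role in breast epithelium and trophoblast, had its lowest values at 2 h. It gave 50.2, 47.3, 47.5 and 53.3 CPM under DMSO, and after 2 h of dTAG 46.1, 43.5, 42.3 and 42.9 CPM, without overlap. TEAD4 fell by 0.18 ± 0.04 (SE) on the log2 scale, a ratio of 0.880, with an edgeR adjusted p of 0.0789, and 0.0301 with the block. At 0.5 h it gave 46.2, 48.2, 46.0 and 44.2 CPM, and at 1 h 44.8, 45.5, 44.9 and 42.7 CPM. TEAD4 stayed at 47.3, 45.8, 47.8 and 43.2 CPM in the 4 h group, then at 45.9, 44.9 and 44.9 CPM in the 24 h group. In 17 of 19 same-numbered pairs TEAD4 was lower in the dTAG library. Its 95% interval lay below 0 at all 5 time points, from -0.11 to -0.18 in log2 fold change, but 2 h alone was called. These pairs and intervals reuse the 4 DMSO libraries, of which replicate 4 was highest at 53.3 CPM, so they are not independent. The share of all genes with such pair counts or intervals is not given here. The 2 h call was lost without any 1 of the replicate numbers, with edgeR adjusted p-values from 0.172 to 0.628. It was also lost with total counts (0.657) or no low-count filter (0.561).

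TEAD1 (ENSG00000187079; chromosome 11, 12674421 to 12944737, plus strand) gave 158, 147, 156 and 152 CPM in DMSO and 144, 140, 138 and 138 CPM at 1 h, without overlap. The 1 h difference, -0.13 ± 0.05 (SE) in log2 fold change, had edgeR adjusted p-values of 0.325 and, when the block entered the fit, 0.0531. It was thus called at 1 h with the block alone. With the block, 3 of the 8 genes were called at 1 h, all lower, against 3.25% of all genes (1.75% lower). The 24 h libraries, 138, 136 and 143 CPM, also lay below all DMSO libraries, with a log2 fold change of -0.14 ± 0.05 and edgeR adjusted p-values of 0.397 without and 0.147 with the block. At 0.5 h TEAD1 gave 160, 147, 151 and 148 CPM, at 2 h 150, 140, 147 and 137 CPM, and at 4 h 170, 145, 146 and 150 CPM. The 170 CPM came from replicate 1 at 4 h, the library with the highest mitochondrial share.

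**Figure D3:**
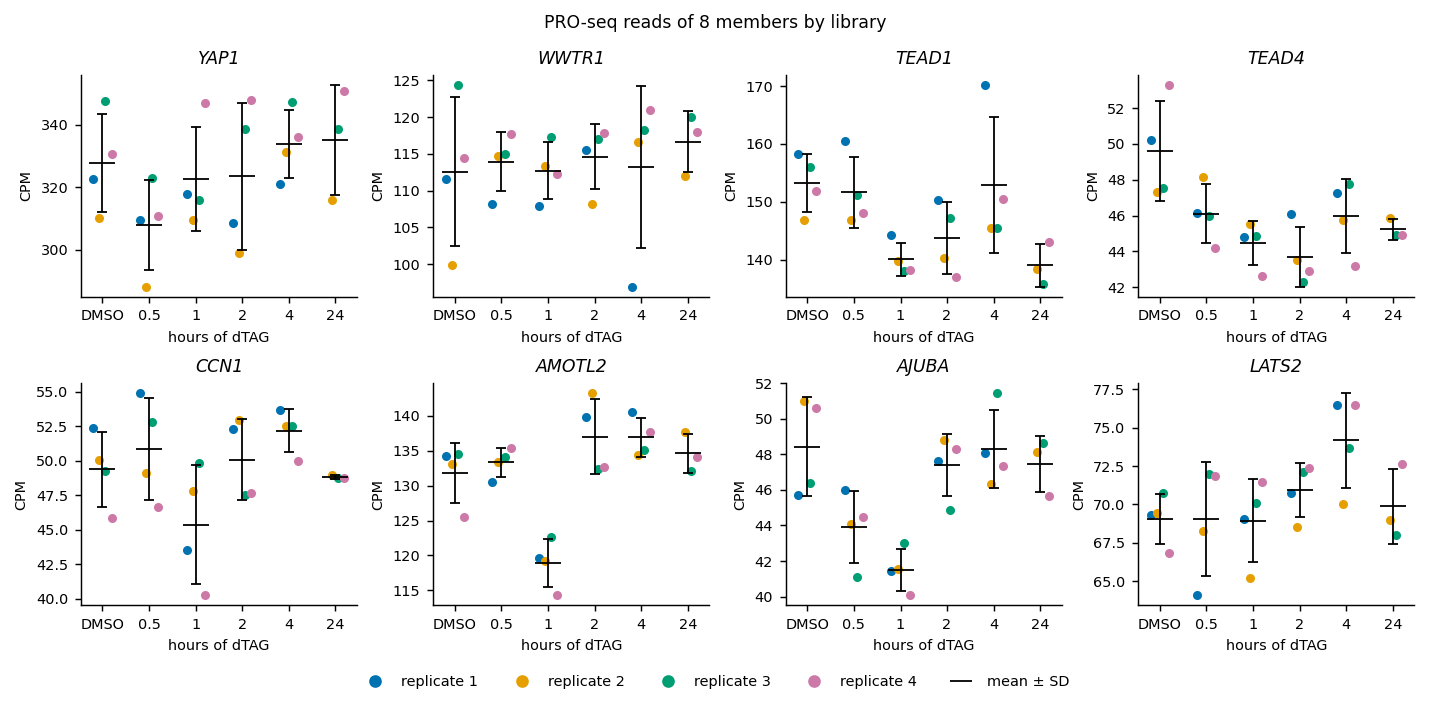
CPM of the 8 tested genes in each library, coloured by replicate number, with the mean and SD of each group. At 1 h all 4 libraries of TEAD1, TEAD4, AMOTL2 and AJUBA lay below all 4 DMSO libraries, whereas YAP1 and WWTR1 overlapped DMSO at every time point.

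Neither coactivator had a called change. YAP1 (ENSG00000137693; chromosome 11, 102110447 to 102233424, plus strand) gave 323, 310, 348 and 331 CPM in DMSO. It gave 309, 288, 323 and 311 CPM at 0.5 h, lower than DMSO in 4 of 4 same-numbered pairs, with a log2 fold change of -0.09 ± 0.05 (SE) and an edgeR adjusted p of 0.776, or 0.241 with the block. Its group means from 1 h on were 323 ± 16.7 (SD, n = 4), 323 ± 23.5, 334 ± 10.9 and, at 24 h, 335 ± 17.7 CPM (n = 3). The 95% interval at 24 h ran from -0.09 to 0.15 in log2 fold change, so a larger change is not within that interval. WWTR1 (ENSG00000018408; chromosome 3, 149517235 to 149736714, minus strand) gave 112, 99.9, 124 and 114 CPM in DMSO, and its group means after dTAG lay between 113 and 117 CPM. The log2 fold changes of WWTR1 were 0.00 to 0.05, with standard errors of 0.06 to 0.07.

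CCN1, the target with the highest level per kb, showed no called change (ENSG00000142871; chromosome 1, 85580761 to 85584589, plus strand). It gave 52.4, 50.1, 49.2 and 45.9 CPM in DMSO and 43.5, 47.8, 49.9 and 40.3 CPM at 1 h, where the groups overlapped. That 1 h difference, -0.12 ± 0.06 (SE) in log2 fold change, had a 95% interval from -0.25 to 0.02, which includes 0 (edgeR adjusted p 0.675). At 4 h its libraries gave 53.7, 52.5, 52.5 and 50.0 CPM, each above its same-numbered DMSO library, with a log2 fold change of 0.08 ± 0.06 that was not called. At 24 h the 3 libraries lay close together, at 49.0, 48.8 and 48.7 CPM, inside the DMSO range.

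LATS2 (ENSG00000150457; chromosome 13, 20973036 to 21061586, minus strand) had the largest positive value of the 8 genes. It gave 69.3, 69.4, 70.7 and 66.8 CPM in DMSO and 76.5, 70.0, 73.7 and 76.5 CPM at 4 h. This 4 h difference of 0.10 ± 0.04 (SE) in log2 fold change was not called (edgeR unadjusted p 0.0304, adjusted p 0.571). Its group means at the other time points, 68.9 to 70.9 CPM, lay within the DMSO range of 66.8 to 70.7 CPM or just above it.

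Counting separation instead of a test, 4 of the 8 genes (TEAD1, TEAD4, AMOTL2 and AJUBA) had 1 h libraries that did not overlap DMSO, all lower, against 5.37% of all tested genes and 2.91% in that direction. The same held for 1 gene at 2 h (TEAD4; 4.85% of all genes, 2.2% lower) and for 2 at 24 h (TEAD1 and TEAD4; 9.49%, 4.27% lower), and for none at 0.5 h (4.97%) or 4 h (4.43%). The median log2 fold change of the 8 genes was -0.12 at 1 h, beside 0.01 over all genes. At 0.5, 2, 4 and 24 h it was -0.01, 0.00, 0.02 and 0.00, beside 0.01, 0.00, 0.01 and 0.00 over all genes. The 8 luminal markers had the same median at 1 h, -0.12, with all 8 below 0, 1 called lower (GATA3) and 3 with the block, and a median of -0.13 at 0.5 h. KRT19 and GATA3 were lower in 19 of 19 pairs, KRT8 in 18, ESR1 in 17, KRT18 in 15 and FOXA1 in 13. EPCAM and CDH1 were lower in 11 of 19 and higher in 8. All these pairs reuse the 4 DMSO libraries. KRT19, a luminal keratin, did not overlap DMSO at 1 h, and EPCAM lay above all DMSO libraries at 4 h. GATA3, a luminal factor, fell at 1 h by 0.22 ± 0.03 (SE) on the log2 scale with an edgeR adjusted p of 0.000717, and TP63 was higher by 0.49 ± 0.09 with an adjusted p of 0.00504. The part of these markers in the 1 h values was not tested.

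The time course from DMSO to 4 h was tested as a whole on 20 libraries and 25255 genes, asking whether any of the 4 time points differed. AMOTL2 was called (edgeR adjusted p 0.0257, and 0.0093 with the block), and so was AJUBA (0.0779, and 0.0533 with the block), 2 of 8 genes against 1.33% of all genes, or 4.6% with the block. For AMOTL2 the mean log2 fold change over the 4 time points was -0.01, since the 1 h value was the only one below 0. TEAD4 had an edgeR adjusted p of 0.292 over the time course and 0.146 with the block. The late effect was compared with the early one directly, 24 h against 0.5 h, and 0 of the 8 genes were called (1.99% of all genes; 6.34% with the block, where again 0 were called). DESeq2 also called 0. An unadjusted edgeR p under 0.05 was reached by 3 of the 8, beside 2786 of all 26057 genes. The smallest unadjusted p-value there was 0.0228, for TEAD1, at a log2 fold change of -0.13 ± 0.05 (SE) and an edgeR adjusted p of 0.334.

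The targets were also compared library by library, on log2 CPM after subtracting the mean of each replicate number. The 1 h libraries stood apart from the other 19 for AMOTL2, so values are given for those 19. Among 28 pairs of the 8 genes, r over the 19 libraries lay between -0.54 (TEAD4 and AMOTL2) and 0.69 (AMOTL2 and LATS2, Spearman's rho 0.47). CCN1 and AMOTL2 had r = 0.40 and rho = 0.42. AMOTL2 and AJUBA, the genes called at 1 h, had r = -0.01 and rho = 0.01 outside 1 h. These values describe libraries that share depth, treatment and harvest, and carry no test.

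**Figure D4:**
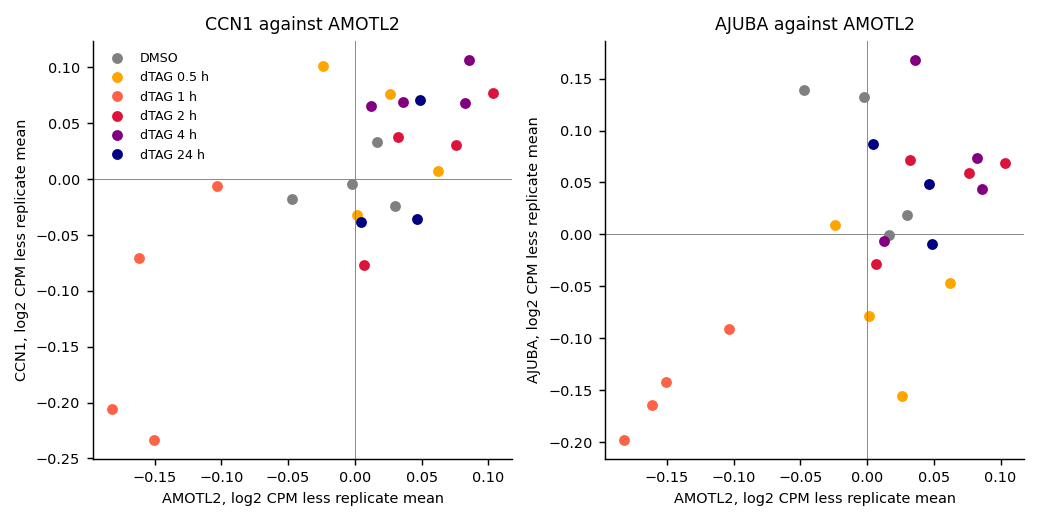
CCN1 (left) and AJUBA (right) against AMOTL2, as log2 CPM less the mean of the same replicate number, with a point per library coloured by group. The 4 libraries at 1 h sit at the lower left for AJUBA, as do 3 of them for CCN1, whose replicate 3 lies near 0 at -0.01; without them r was 0.40 for CCN1 and -0.01 for AJUBA over 19 libraries.

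Across all tested genes, the patterns most like that of AMOTL2 over the 23 libraries were those of MXD4 (Pearson's r 0.85, rho 0.69), ENTPD4 (0.85, rho 0.82) and LZTFL1 (0.84, rho 0.77). For CCN1 they were ZNF890P (0.87, rho 0.77), BCRP2 (0.80, rho 0.69) and KCNE1 (0.80, rho 0.72). These values are the highest of a search over all tested genes, include the 1 h libraries and carry no test. No such search was possible for CCN2, which was not tested.

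The upstream Hippo regulators, 24 tested of 25 listed, gave 0 edgeR calls against DMSO at each of the 5 time points. At an unadjusted p under 0.05 there were 1 to 5 of the 24, beside 1849 to 2454 of all 26057 genes. DESeq2 called 1 at 1, 2 and 4 h, WWC3 each time, and 0 at 0.5 and 24 h. The block raised the calls to 2 at 0.5 h (2.48% of all genes), 3 at 4 h (2.49%) and 1 each at 1 h, 2 h (2.43%) and 24 h (2.65%). WWC3, a paralogue of the adaptor KIBRA, had the smallest unadjusted p of the list, 0.00156, at 1 h. It gave 438, 411, 407 and 389 CPM in DMSO and 490, 437, 449 and 473 CPM at 1 h, where 1 replicate of dTAG still lay below the highest DMSO library. Its log2 fold change was 0.17 ± 0.05 (SE), with edgeR adjusted p-values of 0.115 without the block and 0.00286 with it, and it was called with the block at 0.5, 1, 2 and 4 h. At 24 h WWC3 was back inside the DMSO range at 411, 404 and 407 CPM.

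TAOK3, a kinase upstream of the Hippo core, was highest at the late time points. Its DMSO libraries gave 198, 191, 219 and 205 CPM. By 4 h TAOK3 had reached 227, 222, 240 and 239 CPM, and the 24 h group held 215, 242 and 249 CPM. Its log2 fold changes of 0.19 at 4 h and 0.21 at 24 h were not called (edgeR adjusted p 0.316 and 0.300), except with the block (0.00479 and 0.00809). Against 0.5 h, TAOK3 rose at 24 h by 0.28 ± 0.07 (SE) with an edgeR adjusted p of 0.0557. MAP4K2, another kinase that can act on LATS, was lower at 1 h by a log2 fold change of -0.26, not called (edgeR adjusted p 0.241). The median of the list lay between -0.06 and 0.03 at the 5 time points.

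Of the other TEAD genes and their VGLL cofactors, 5 of 6 were tested and 0 were called against DMSO by edgeR. At an unadjusted p under 0.05 there were 2 at 0.5 h, beside 2002 of all 26057 genes, and 0 at the other time points. DESeq2 called 1, VGLL4 at 0.5 h. VGLL4 competes with YAP1 for TEAD proteins. It gave 270, 247, 272 and 262 CPM in DMSO and 233, 239, 241 and 246 CPM at 0.5 h, every 0.5 h library below every DMSO library. The log2 difference of -0.13 ± 0.04 (SE) had edgeR adjusted p-values of 0.175 and, under the block, 0.0291. VGLL4 rose from 0.5 h to 24 h by 0.15 ± 0.04 with an edgeR adjusted p of 0.0726; it shares 1597 bp with ATG7 on the opposite strand. VGLL1, at 0.7 to 1.4 CPM in DMSO and 1.7 to 2.1 CPM at 0.5 h, and TEAD2, at 18.04 to 21.0 CPM in DMSO, were not called at any time point.

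Among 17 other genes of a published YAP/TAZ target signature, 14 were tested, and 1 was called at each of 1, 2, 4 and 24 h and 0 at 0.5 h, all of them higher. Of all genes, 0.514%, 0.43%, 0.526% and 0.564% were called higher at 1, 2, 4 and 24 h. The called genes were CRIM1 at 1 and 4 h and TGFB2 at 2 and 24 h. With the block, 2 were called higher at each of those 4 time points, against 1.49%, 1.3%, 1.55% and 1.43% of all genes. DESeq2 called 0, 1, 2, 2 and 3 at the 5 time points in order, all among CRIM1, TGFB2 and MYOF. Its share over all genes is not given here, so these counts cannot be set against it. CRIM1, a transmembrane protein that binds BMPs, gave 142, 129, 157 and 146 CPM in DMSO. All 8 libraries at 1 h (175, 160, 169 and 180 CPM) and 4 h (178, 163, 172 and 178 CPM) were higher. On the log2 scale CRIM1 rose by 0.25 ± 0.06 (SE) after 1 h (edgeR adjusted p 0.0379) and by 0.27 ± 0.06 after 4 h (0.027). At 24 h it stood at 163, 166 and 170 CPM, a log2 fold change of 0.21 that was not called by edgeR (adjusted p 0.178) but was called with the block (0.00391) and by DESeq2 (adjusted p 0.0617). The calls at 1 h and 4 h were lost with total counts as the scale (0.190 and 0.224) and without replicate 1, 3 or 4 (edgeR adjusted p 0.236, 0.170 and 0.419 at 1 h, and 0.224, 0.171 and 0.396 at 4 h), among others. Beside the block, they held under 3 of 9 alternatives at 1 h and 4 of 9 at 4 h. CRIM1 overlaps FEZ2 on the opposite strand over 19331 bp.

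TGFB2, the transforming growth factor beta 2 gene, was above DMSO throughout and highest at 24 h. Under DMSO it gave 19.1, 18.7, 19.5 and 18.4 CPM, and 0.5 h of dTAG gave 19.96, 19.98, 21.9 and 22.1 CPM. The 1 h group held 22.1, 21.4, 23.8 and 22.7 CPM. By 2 h TGFB2 stood at 21.2, 23.8, 22.2 and 24.8 CPM, at 4 h at 24.4, 20.1, 20.98 and 22.04 CPM, and in the 24 h group it reached 26.4, 25.4 and 28.6 CPM. The log2 fold changes at 0.5, 1 and 4 h, of 0.15, 0.25 and 0.20, were not called (edgeR adjusted p 0.561, 0.120 and 0.484). On the log2 scale TGFB2 rose by 0.28 ± 0.07 (SE) after 2 h (edgeR adjusted p 0.0568) and by 0.50 ± 0.07, or 1.42-fold, after 24 h (edgeR adjusted p 0.000739). The 2 h call was lost without replicate 2, 3 or 4 (edgeR adjusted p 0.450, 0.330 and 0.749), among others, and held under 3 of 9 alternatives beside the block. The 24 h call was lost without replicate 4 alone (0.109). The rise from 0.5 h to 24 h was itself called, at 0.35 ± 0.07 with an edgeR adjusted p of 0.0145. TGFB2 and CRIM1 were above their same-numbered DMSO library in 19 of 19 pairs. Such pairs reuse the 4 DMSO libraries, and the share of all genes reaching 19 of 19 is not given here. MYOF, a membrane repair protein and the gene with the third smallest p of this list, was higher in 19 of 19 pairs too, and its 4 h difference, 0.10 ± 0.03 in log2 fold change, was not called by edgeR (adjusted p 0.184) but was called with the block (0.0342). The median log2 fold change of the 14 genes was 0.03, 0.06, 0.06, 0.06 and 0.02 at the 5 time points in order. In the same order, 8, 8, 12, 9 and 7 of the 14 lay above 0. Over all tested genes, 53.2%, 52.6%, 51.0%, 54.7% and 50.9% lay above 0.

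**Figure D5:**
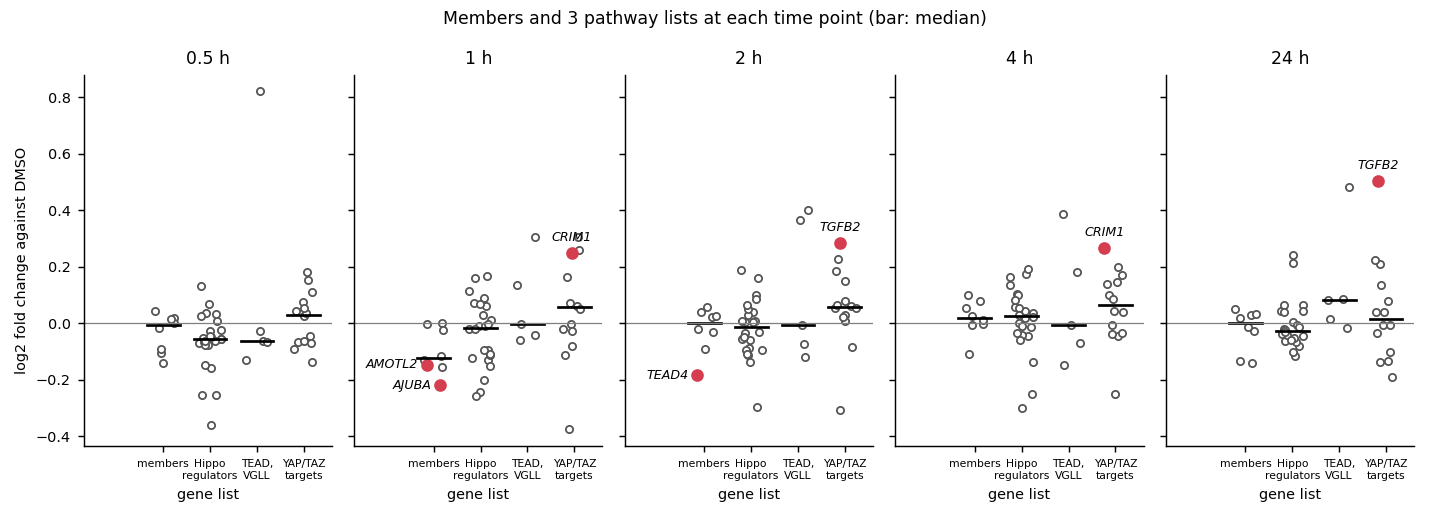
Log2 fold change against DMSO of the 8 tested YAP/TEAD genes and the tested genes of 3 pathway lists at each time point, with a point per gene and a bar at the list's median; red points have an edgeR adjusted p under 0.1. AMOTL2, AJUBA and TEAD4 are the red points below 0, and CRIM1 and TGFB2 those above 0.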

How the data were processed

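Per the study's methods and the labels, the authors trimmed PRO-seq reads with cutadapt 1.8.1, removed duplicates by an 8-base molecular identifier, discarded rDNA reads, aligned the rest to hg38 with Bowtie2 2.4.4 and SAMtools 1.9, and counted them in genes with bedtools. The deposited values are raw read counts per gene, not normalized. The annotation and the use of strand in counting are not given in the sources used here. Symbols and spans came from GENCODE release 44 by Ensembl identifier. No 24 h library of replicate 1 was used here.

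Counts were filtered with filterByExpr (minimum count 10, total 15), scaled by TMM and tested in edgeR 4.0.16 (R 4.3.3; glmQLFit and glmQLFTest, two-sided), with Benjamini-Hochberg adjustment over all kept genes and a threshold of 0.1. The fits had no replicate term, and the study's methods do not state whether theirs had one. Same-numbered replicates shared a harvest per the labels, so the block was fitted beside them. Deviations from group means correlated at a mean r of 0.287 over 55 same-numbered pairs and -0.0825 over 165 others. Replicates were harvested from separate dishes of 1 clone, so p-values measure the spread between harvests of that clone. The scripts were tested on simulated data. Tried as alternatives were scaling by median of ratios or by total counts, no filter, DESeq2 1.42.0, the block, the 2 groups alone, all 5 time points and each replicate left out.

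The members and lists were chosen with earlier results of these data known. Named genes were all 10 members, the called genes of 3 pathway lists, and otherwise up to 3 genes per list with the smallest p. Marker genes named outside that rule were picked after their values were seen. CPM intervals for CCN2 and ANKRD1 are exact Poisson intervals at 95%.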

Additional observations from a re-analysis of the deposited data

Results flagged for a closer look

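Libraries far from the other 3 of their group were sought by Dixon's test at 5% over 110 gene and group combinations, where chance flags about 1 in 20, and 4 were found. AMOTL2 in DMSO replicate 4 stood at 125 CPM beside 133 to 134 CPM in the other 3 libraries, so the DMSO level of the gene that dipped at 1 h includes a low library. CCN2 at 4 h in replicate 1 stood at 0.797 CPM beside 0.181 to 0.235 CPM, which rests on 3 counts in the shallowest library. TEAD2 at 4 h in the same library stood at 20.7 CPM beside 16.1 to 16.5 CPM. GATA3 at 2 h in replicate 4 stood at 1007 CPM beside 965 to 971 CPM.

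The effect differed between time points, by the edgeR test of 24 h against 0.5 h, for 3 genes of the pathway lists and 0 of the 8 tested YAP/TEAD genes. The 3 lists held 24, 5 and 14 tested genes, with 1 called in each. Over all genes, 1.99% were called in this comparison, 1.2% higher. TGFB2 was higher at 24 h by 0.35 on the log2 scale, TAOK3 by 0.28 and VGLL4 by 0.15.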

How the results depend on the processing

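The calls on the YAP/TEAD genes were close to the threshold. With median-of-ratios size factors the counts were as reported (2 at 1 h, 1 at 2 h, 2 over the time course), and testing all 5 time points together gave 2 as well. DESeq2 gave 2, 1 and 2, and called 1 gene at 24 h, TEAD1, where edgeR called 0. The replicate block gave 3 at 1 h, adding TEAD1, and changed no other call on these genes. Scaling by total counts alone, omitting the low-count filter and fitting only the 2 groups compared gave 0 at 1 h and 0 at 2 h, and the first pair gave 0 over the time course; the cause was not tested. Leaving out replicates in turn gave 0 to 3 genes at 1 h, 0 to 1 at 2 h, 0 to 2 over the time course, 0 to 1 at 24 h and 0 to 1 for 24 h against 0.5 h, where the upper ends came from the fits with the block without replicate 1, chosen after seeing the data. Those fits called TEAD1 at 24 h and YAP1 for 24 h against 0.5 h, and without replicates 2 or 4 they called 0.

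Of 400 recomputed log2 fold changes of the 8 genes against DMSO, 345 kept direction and side of the threshold. Of the others, 20 lost their call, 2 gained one and 33 changed sign. The 20 are not to be read against 400, since only values called in the reported fit could lose a call. Beside the block, AMOTL2 at 1 h kept its call under 2 of 9 alternatives, AJUBA at 1 h under 3 of 9 and TEAD4 at 2 h under 2 of 9. The changed signs belong to 16 of 40 values, none called and none over 0.032 in size in the reported fit. Changed signs under size factors were -6.5e-05 (LATS2, 0.5 h) and -0.00047 (WWTR1, 1 h). Under total counts they were -0.0044 (LATS2, 0.5 h), -0.023 (WWTR1, 1 h), -0.010 (YAP1, 4 h), -0.019 (WWTR1, 4 h), 0.018 (CCN1, 24 h) and 0.0030 (AJUBA, 24 h). WWTR1 at 1 h was -0.0088 without the filter, -0.0020 with 2 groups and -0.0053 in DESeq2, and LATS2 at 0.5 h was -0.0010 with 2 groups. With the replicate block, AJUBA at 4 h was 5.5e-05 and CCN1 at 24 h was 0.0051. Leaving out replicates gave ranges that crossed 0: -0.040 to 0.063 for WWTR1 at 0.5 h, -0.015 to 0.033 for AMOTL2 at 0.5 h, -0.036 to 0.034 for LATS2 at 0.5 h, -0.056 to 0.017 for YAP1 at 1 h, -0.054 to 0.034 for WWTR1 at 1 h, -0.036 to 0.026 for LATS2 at 1 h, -0.0034 to 0.062 for WWTR1 at 2 h, -0.0033 to 0.040 for CCN1 at 2 h, -0.058 to 0.061 for WWTR1 at 4 h, -0.049 to 0.025 for TEAD1 at 4 h, -0.059 to 0.042 for AJUBA at 4 h, -0.0032 to 0.053 for YAP1 at 24 h, -0.053 to 0.011 for CCN1 at 24 h, -0.069 to 0.016 for AJUBA at 24 h and -0.033 to 0.048 for LATS2 at 24 h. TGFB2 at 24 h kept its call under 8 of 9 alternatives beside the block and lost it without replicate 4 (log2 fold change 0.43, edgeR adjusted p 0.109); TGFB2 and CRIM1 were put through the alternatives after seeing the data. CRIM1 kept its call under 3 of 9 alternatives at 1 h and 4 of 9 at 4 h, and TGFB2 at 2 h under 3 of 9. Depth limits CCN2 and ANKRD1, which no filtered fit could test.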
